A study of Mus musculus with 8 samples.

Results

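The cytosolic ribosomal protein genes were described across 3 hypothalamic nuclei of the mouse. Members were the array's non-control spots whose gene name is Rpl or Rps followed by a number and at most an a or an x, or Rplp0, Rplp1, Rplp2 or Rpsa. The rule found 75 genes, 45 of the large and 30 of the small subunit, among 34836 names on the array, with 180 of its 55681 probes. Arrays measured RNA of pooled neurons that carried the ZsGreen reporter, cut out by laser microdissection from the arcuate nucleus (Arc, 2 arrays), the ventromedial hypothalamus (VMH, 3 arrays) and the dorsomedial hypothalamus (DMH, 3 arrays). All groups came from female Nkx2-1-CreERT2 x Rosa-ZsGreen mice, 2 months old, that had been given tamoxifen. The promoter of Nkx2-1, a transcription factor of the ventral hypothalamus, drives an inducible Cre recombinase in them, and Cre switches the reporter on, so the label marks cells in which Cre had acted and not a neuron type. The number of animals behind an array is not given in the labels, so p-values measure the spread between these arrays.

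A cytosolic ribosome joins a small subunit, which reads the mRNA, and a large subunit, which makes the peptide bond. Its proteins are needed in nearly equal numbers, and the mRNAs that encode them are abundant in every cell and are known to be made and translated together. Many of these mRNAs begin with a C and a run of pyrimidines, a 5′ terminal oligopyrimidine tract through which growth signals acting by way of mTOR and Larp1 control their translation, and in hypothalamic neurons phosphorylation of the protein of Rps6 is widely used as a mark of activity.

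A value here comes from a designed probe of 60 bases, so probes behind some of the members with the smallest p over the 3 nuclei are shown first; those of Rps27 and another Rps6 probe are not. Each is written 5′ to 3′ as deposited, in lower case throughout, with its placement in mm9. The Rps6 probes lie at chr4:86500748-86500807 and at chr4:86501867-86502058 on the minus strand, the second spread over 192 bases of genome. The Rps9 probe lies at chr7:3658287-3658346 on the plus strand, and the Rpl23a probe at chr11:77994946-77995005 on the minus strand. For Rpl13 a probe on the plus strand of the gene's own chromosome, chr8:125627816-125628964, is set beside a probe of the same name placed at chr4:52254267-52254326.
Rps6, brightest: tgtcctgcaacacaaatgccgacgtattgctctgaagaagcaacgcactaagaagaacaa
Rps6, spread: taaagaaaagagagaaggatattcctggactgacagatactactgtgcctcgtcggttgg
Rps9: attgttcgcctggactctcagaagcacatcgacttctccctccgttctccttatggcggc
Rpl23a: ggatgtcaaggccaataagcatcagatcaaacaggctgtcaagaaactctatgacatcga
Rpl13, chromosome 8: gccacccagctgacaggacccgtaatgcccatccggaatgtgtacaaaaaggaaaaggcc
Rpl13, chromosome 4: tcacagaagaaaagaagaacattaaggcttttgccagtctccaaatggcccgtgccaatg
Ribosomal protein genes have many near-identical processed copies in the genome, and 11 of the 180 probes, from 5 members (Rpl13, Rpl36, Rps27, Rps29 and Rps4x), were placed on another chromosome than the RefSeq gene. Another probe, of Rps3, has no placement. Only chromosomes were compared, so a probe placed on a copy elsewhere on the gene's own chromosome is not counted. Signal from a gene and from such copies cannot be told apart on these arrays.

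A minority of the members' annotated start sites carried a pyrimidine run. RefSeq promoters (GRCm38.p6, 250 bases before to 50 after the start) were matched by symbol for 55 of the 75 members, with 65 promoters. A C at the annotated start followed by at least 4 pyrimidines stood in 13 of these 65 (20%) and in 2.51% of all 32851 promoters in the table. Windows from 10 bases before the start to 20 bases from it on are shown for 6 of the members that carry it, with that run in capitals.
Rps6, chr4:86857348-86857377, minus strand: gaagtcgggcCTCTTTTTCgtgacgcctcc
Rps27, chr3:90213629-90213658, minus strand: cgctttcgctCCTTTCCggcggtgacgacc
Rps18, chr17:33955646-33955675, minus strand: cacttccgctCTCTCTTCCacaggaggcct
Rpl14, chr9:120571507-120571536, plus strand: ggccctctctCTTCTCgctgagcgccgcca
Rpl15, chr14:18270967-18270996, minus strand: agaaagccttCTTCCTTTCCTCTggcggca
Rpl38, chr11:114668570-114668599, plus strand: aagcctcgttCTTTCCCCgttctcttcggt
Such a run within 10 bases of the annotated start was found in 55.4% of the members' promoters and in 30.7% of all. The ETS core CCGGAA, searched on both strands as CCGGAA or TTCCGG, stood in 47.7% against 14.9%, and the SP1 box GGGCGG, searched as GGGCGG or CCGCCC, in 39 of 65 (60%) against 35.7%. The hexamer TATAAA between 40 and 20 bases before the start was in 0 of the 65 against 1.91% of all. A single long form of the YY1 motif, searched as an exact match on both strands, was in 0 against 0.633%. Near matches to that form were not counted, so whether these promoters hold other YY1 sites was not tested. The 13 members with the run at the start had a median VMH minus Arc difference of -0.27, and the 42 matched members without it had -0.28.

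Values are log2 processed red signal minus the log2 of that array's 75th percentile, so 0 is the 75th percentile of the array, and each gene is given by its brightest probe. The 75th percentile lay between 1806 and 2036 on the Arc and VMH arrays and between 2107 and 3042 on the DMH arrays, with 72.4% to 78.7% of probes well above background. All 75 members' chosen probes were above background on all 8 arrays and 0 were saturated. Markers of the nuclei were chosen with earlier results of these data known, so their counts are descriptions and no separate check of the dissection. The threshold was an adjusted p of 0.05 (limma, adjusted over 27417 genes). Past it, 7 of 7 Arc neuron markers (such as Agrp and Pomc) were lower in VMH than in Arc. In DMH against VMH, 6 of 6 VMH markers were called lower and 6 of 6 DMH markers higher. Against Arc, 4 of 6 VMH markers were called higher in VMH, 5 of 6 DMH markers higher and 6 of 7 Arc markers lower in DMH, and 1 DMH marker, Cck, was called higher in VMH (limma). Nkx2-1 read 0.34 and 0.06 in Arc, 1.09 to 1.19 in VMH and 1.12 to 1.26 in DMH. The DMH array of replicate 1 stood apart from the other DMH arrays for the members: the SD over the 75 members of the distance from each member's own mean was 0.37 on it and 0.11 to 0.19 on the 7 others, and it had the highest 75th percentile of the 8.

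With 1 scaling factor per array, ribosomal protein genes mostly read highest in Arc and lowest in VMH, by small amounts, and no member passed the threshold in any comparison. Arc had the highest mean of the 3 nuclei for 65 of the 75 members (39.4% of all genes tested), and VMH the lowest for 53 (29.3%). The order Arc, then DMH, then VMH held in 45 members (16.1% of all genes). Arc's place depended on the scaling: under quantile normalization it was highest for 44 of 75 members and VMH lowest for 69. In the moderated F test over the 3 nuclei (limma), 0 of 75 members were called, against 1.69% of all genes. At an unadjusted p under 0.05 there were 4 members, 5.33% of them, against 17.7% of all genes.

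**Figure D1:**
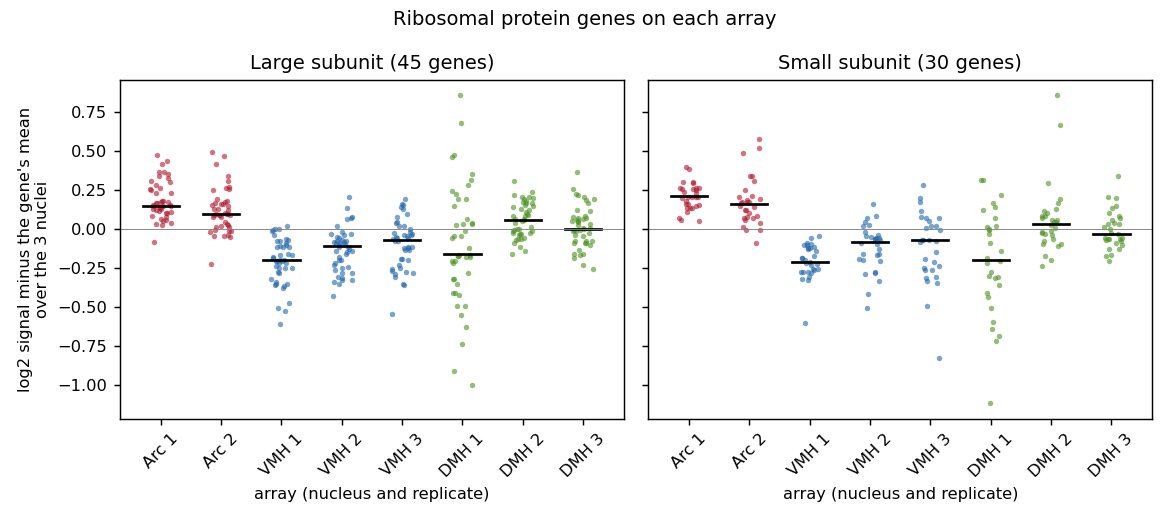
Each dot is a member gene on an array, as its log2 signal minus its mean over the 3 nuclei (vertical axis), for 45 large and 30 small subunit genes, and black bars are medians. The Arc medians lie at 0.10 to 0.21, the VMH medians at -0.21 to -0.07 and the DMH medians at -0.20 to 0.06, with the widest spread of dots on DMH 1.

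The shift appeared array by array in both subunits. On the Arc arrays the large subunit members lay a median of 0.15 and 0.10 above their own means, and the small subunit members 0.21 and 0.16 above. On the VMH arrays the medians were -0.20, -0.11 and -0.07 for the large and -0.21, -0.08 and -0.07 for the small subunit. The first DMH array had medians of -0.16 and -0.20, with 17 of 45 large subunit members above their own mean against 3, 6 and 12 on the VMH arrays, while the other two lay near 0. Of the 30 small subunit members, 30 were above their own mean on the first Arc array and 0 on the first VMH array. Over all genes the same medians ran from -0.10, on the first DMH array, to 0.06.

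In VMH against Arc nearly all members lay on the same side of 0. The fitted difference was below 0 in 73 of 75 members, against 52.5% of all genes, and none was called (0 of 75, against 0.977% of all genes; limma). At an unadjusted p under 0.05 there were 7 members, against 14.2% of all genes. The median difference was -0.29 for the large subunit (43 of 45 below 0) and -0.27 for the small subunit (30 of 30), and -0.03 for all genes. On the linear scale these are 0.816 and 0.829 times the Arc level. All VMH arrays lay below both Arc arrays for 60 of the 75 members, against 18.5% of all genes, and the reverse held for 0 members, against 16.4%. The members' fitted differences ran from -0.91 to 0.05, with an SD of 0.18 over genes, and the moderated SE of a single member's difference had a median of 0.209. Between replicate arrays the members had a median residual SD of 0.151, against 0.355 for all genes, which were mostly dimmer. Genes of like brightness were not compared. The fit draws each gene's variance toward a prior value common to all genes, which raised the SE of members with a low residual SD. Rps6, for example, had a residual SD of 0.0562 and an SE of 0.18.

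**Figure D2:**
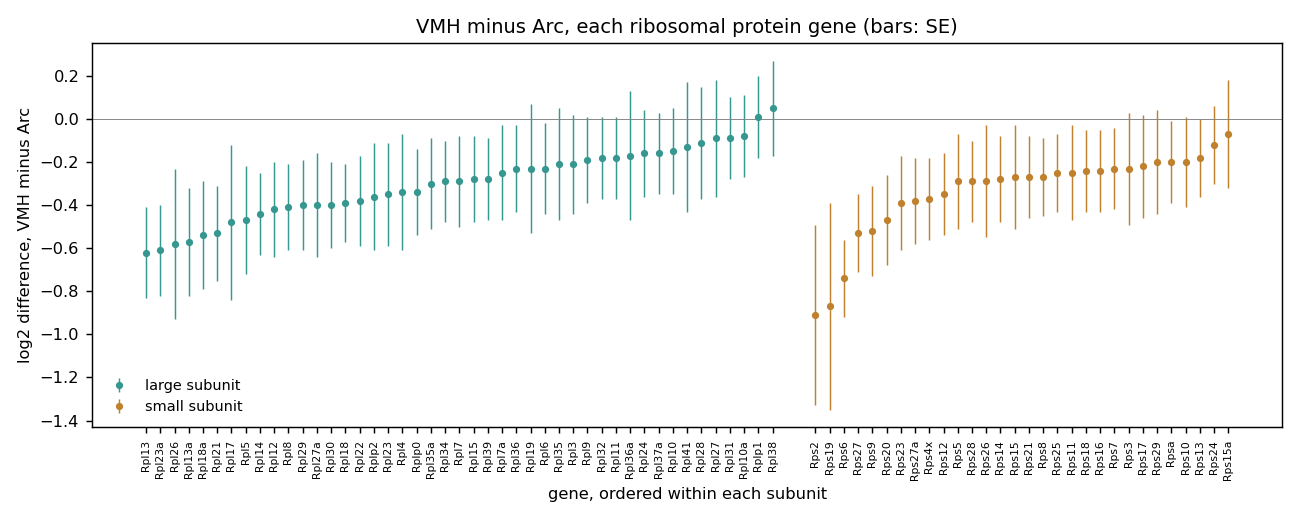
Points are the fitted log2 differences VMH minus Arc of the 75 members, ordered within each subunit, and bars are their standard errors. Points of 73 members lie below 0, and Rplp1 and Rpl38, at the right end of the large subunit, lie at 0.01 and 0.05.

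Rps6, the small subunit protein phosphorylated by the S6 kinases, had the smallest p of the family. Its signal was 4.81 and 4.91 in Arc, 4.14, 4.09 and 4.11 in VMH, and 4.22, 4.33 and 4.36 in DMH. On its brightest probe, all 3 VMH arrays lay below all 3 DMH arrays, and these below both Arc arrays. The VMH minus Arc difference was -0.74 ± 0.18 (SE), 0.597 times the Arc level, with an adjusted p of 0.135 in limma, and the DMH minus Arc difference was -0.56 ± 0.18 with an adjusted p of 0.202. The F test gave an adjusted p of 0.159 (limma), and this ran from 0.0386 to 0.346 over the 25 other settings. It was past the threshold in 1 of them, in which the prior variance followed the signal level. These values are from the brightest probe in the main fit. The other Rps6 probes gave smaller DMH minus Arc differences, -0.22 and -0.11, and on the probe with -0.11 the DMH and Arc arrays overlapped.

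Rps27, a zinc-binding small subunit protein, read 4.02 and 3.89 in Arc, 3.44, 3.44 and 3.37 in VMH and 3.71, 3.83 and 3.79 in DMH. On this brightest Rps27 probe the groups did not overlap, with VMH lowest. The VMH minus Arc difference was -0.53 ± 0.18 (SE, limma adjusted p 0.257). All 4 of its probes are placed on chromosome 9, while RefSeq has the gene on chromosome 3.

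Among the large subunit genes, Rpl13 read 3.83 and 3.50 in Arc, 3.00, 3.04 and 3.10 in VMH and 3.15, 3.48 and 3.43 in DMH. Its VMH arrays were its 3 lowest. Rpl23a, at the exit of the peptide tunnel, read 2.61 and 2.89 in Arc, 1.97, 2.15 and 2.28 in VMH and 2.43, 2.68 and 2.52 in DMH, and here too the VMH arrays were lowest while the other nuclei overlapped. The VMH minus Arc differences were -0.62 ± 0.21 for Rpl13 and -0.61 ± 0.21 for Rpl23a (SE; both limma adjusted p 0.257).

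The members with the lowest VMH minus Arc differences, Rps2 and Rps19, were also among the most variable. Rps2, at the mRNA entry channel, read 2.09 and 2.31 in Arc, 1.52, 1.38 and 0.97 in VMH and 1.11, 2.65 and 1.90 in DMH. Rps19, an assembly-critical protein mutated in Diamond-Blackfan anaemia, read 0.90 and 1.08 in Arc, -0.10, 0.44 and 0.01 in VMH and -0.61, 1.17 and 0.64 in DMH. In both the VMH arrays lay below the Arc arrays and the DMH arrays spanned both nuclei. Their differences of -0.91 ± 0.42 and -0.87 ± 0.48 (SE) had limma adjusted p of 0.384 and 0.458. For Rps2 the difference was -0.51 with the mean of its 2 probes and -0.15 with normexp background correction. The brightest probe was chosen anew under normexp, so the probe behind -0.15 may be another. The Rps2 probes were about equally bright, with mean log2 signals of 1.74 and 1.73, and the second gave a VMH minus Arc difference of only -0.10 ± 0.29 (SE). Its other probe is placed at chr17:42864841-42864900, away from the brightest at chr17:24857583-24857642. Whether that probe measures the gene or a copy cannot be told.

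At the other end lay Rpl38, a large subunit protein known for its part in translating Hox mRNAs, with 5.16 and 5.06 in Arc, 5.05, 5.18 and 5.24 in VMH and 4.79, 5.30 and 5.11 in DMH. Its 3 nuclei overlapped. Rplp1, of the stalk that recruits elongation factors, read 3.83 and 3.93 in Arc, 3.82, 3.88 and 3.96 in VMH and 3.52, 3.80 and 3.57 in DMH. Here Arc and VMH overlapped and the DMH arrays lay below all others. Rps15a, Rpl10a and Rpl27 followed, with VMH minus Arc differences of -0.07, -0.08 and -0.09.

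Most members were measured by several probes, which in VMH minus Arc mostly lay on 1 side of 0. Of 178 probes kept, 164 had a VMH minus Arc difference below 0, against 52.3% of all probes, with a median of -0.28. None of the 178 was called (limma over 41482 probes; 0.783% of all probes were). Of the 60 members with several kept probes, all probes lay below 0 in 48 and all above 0 in 2, and they disagreed in 10. Probes of some members, such as Rpl35 and Rpl38, cover nearly the same bases. Agreement between such probes is not agreement of separate measurements. The disagreeing members were Rpl15, Rpl21, Rpl22, Rpl23, Rpl27a, Rpl28, Rpl31, Rpl6, Rps27a and Rpsa. The widest gaps were in Rpl22, an RNA-binding large subunit protein, whose probes gave -0.38 and 0.88, and in Rpsa, the laminin receptor precursor, whose 4 probes ran from -0.37 to 0.86.

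**Figure D3:**
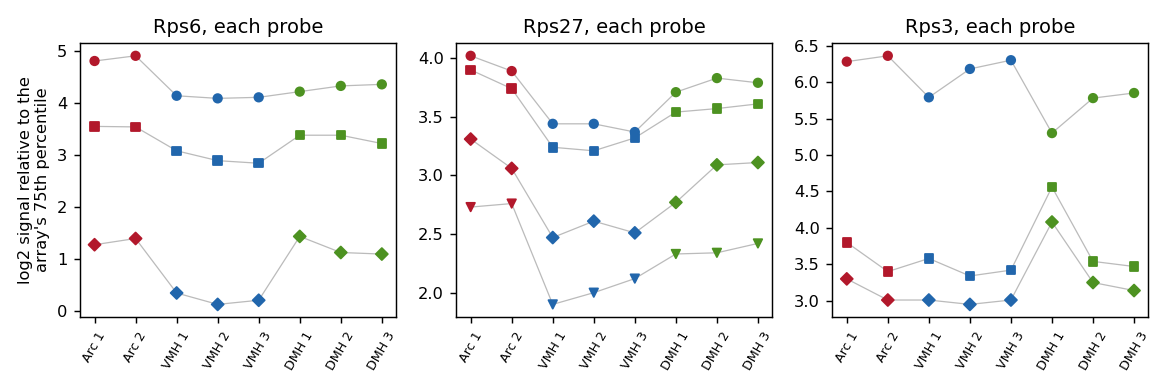
The log2 signal relative to each array's 75th percentile is plotted for every kept probe of Rps6 (3 probes), Rps27 (4) and Rps3 (3), with colours for the nuclei (red Arc, blue VMH, green DMH) and a marker shape for each probe. For Rps6 and Rps27 every probe has its 3 VMH arrays lowest. In Rps3 the brightest probe is lowest on DMH 1 (5.30), where the other two are highest (4.56 and 4.08).

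The 3 Rps6 probes gave VMH minus Arc differences of -0.74, -0.61 and -1.11, and the 4 Rps27 probes gave -0.53, -0.56, -0.65 and -0.74. The Rps27 probes with -0.53, -0.56 and -0.74 overlap one another in placement, so they are not separate measurements. For Rpl13 the 2 probes on chromosome 8 gave -0.62 and -0.28, and the 2 placed on chromosome 4 gave -0.70 each. Rps4x, the X-linked small subunit gene, gave -0.37 from its probe on X and -0.48 from that on chromosome 3. A dimmer Rpl23 probe printed 10 times had an SD over its spots of 0.0887 to 0.197 on each array, which holds spot-to-spot error only. That Rpl23 probe read 0.71 and 0.31 in Arc, 0.53, 0.46 and 0.79 in VMH and 1.02, 0.33 and 0.97 in DMH, and its nuclei overlapped.

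DMH against Arc shares its Arc arrays with the comparison above. Ribosomal protein genes were lower in DMH in 67 of 75 members, against 54.0% of all genes, and 0 of 75 were called, against 0.416% (limma). All genes were mostly dimmer than the members, and bright probes in general were lower in DMH. Of all probes with a mean log2 signal of 5 and over, 665 of 709 were below 0, and of member probes 20 of 20. At 4 to 5 these were 493 of 694 and 20 of 21. At an unadjusted p under 0.05 there were 2 members, against 16.6% of all genes. The median difference was -0.18 for the large and -0.20 for the small subunit, and -0.05 for all genes. All DMH arrays lay below both Arc arrays in 33 members, against 19.9% of all genes. Under quantile normalization the medians were -0.01 and -0.06, and under cyclic loess -0.01 and -0.07, and the members below 0 then numbered 44 of 75 (51.3% of all genes) and 46 of 74 (50.4%), so both the size and the share depended on the normalization.

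Rps3, at the mRNA entry channel, had the lowest DMH minus Arc value, and its probes did not agree. Its brightest probe read 6.28 and 6.36 in Arc, 5.79, 6.18 and 6.30 in VMH and 5.30, 5.78 and 5.85 in DMH, a DMH minus Arc difference of -0.68 ± 0.26 (SE; limma adjusted p 0.25). The other 2 probes gave 0.26 and 0.33. Rpl26 and Rpl17, both near the tunnel exit, followed at -0.62 each, and in both the first DMH array lay far below the others: Rpl26 read 1.89 there and 3.04 and 2.81 on the other DMH arrays, and Rpl17 read 2.26, 3.48 and 3.31. Their highest probes gave 0.31 for Rpl26 and 0.29 for Rpl17.

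Higher in DMH than in Arc were 8 members (46.0% of all genes). Rps25, a small subunit protein used in internal initiation, read 2.97 and 2.91 in Arc, 2.66, 2.71 and 2.68 in VMH and 3.08, 3.21 and 3.06 in DMH. It was the 1 member with all DMH arrays above both Arc arrays (13.6% of all genes), and its VMH arrays were lowest. Another Rps25 probe gave a DMH minus Arc difference of -0.26. Rpl36a, X-linked, had the highest DMH minus Arc value, 0.41 ± 0.30 (SE; limma adjusted p 0.537), with 2.35 and 2.06 in Arc, 1.91, 1.98 and 2.22 in VMH and 3.14, 2.22 and 2.49 in DMH. That mean rested on the first DMH array, and Rpl4, at 3.12 there against 2.41 and 2.42 on the other DMH arrays, shared this.

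DMH against VMH, which shares arrays with both comparisons above, had 53 of 75 members higher in DMH, against 45.8% of all genes, with medians of 0.12 for the large and 0.10 for the small subunit and -0.04 for all genes. None was called (0 of 75, against 1.23% of all genes; limma), and 5 had an unadjusted p under 0.05, against 13.2%. All VMH arrays lay below all DMH arrays in 22 members (9.2% of all genes) and the reverse held in 2, Rplp1 and Rpsa (12.5% of all genes). Rps9, at the mRNA entry channel, had the smallest p: it read 3.35, 3.07 and 3.24 in VMH and 3.89, 3.60 and 3.78 in DMH, with 3.81 and 3.66 in Arc. Its VMH arrays lay below all the others, and the DMH minus VMH difference was 0.54 ± 0.18 (SE; limma adjusted p 0.268). Next to Rps9, the highest DMH minus VMH values were 0.60 for Rps2, 0.58 for Rpl36a, 0.54 for Rpl13a and 0.47 for Rpl4. The lowest were -0.45 for Rps3, -0.27 for Rps29, -0.26 for Rplp1 and -0.24 each for Rps15 and Rpsa. These are from the brightest probes. Another probe lay across 0 for Rps3 (0.50), Rps15 (0.38), Rpsa (0.09), Rps29 (0.03) and Rpl13a (-0.28). All probes of Rps2, Rpl36a and Rplp1 lay on 1 side, and Rps9 and Rpl4 had a single probe. Below 0 were 22 members (54.2% of all genes), and without the first DMH array 12, and the family median moved from 0.11 to 0.15. Under quantile normalization 5 of 75 were below 0, and under cyclic loess 6 of 74.

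Probe by probe, 137 of 178 lay below 0 in DMH minus Arc (52.6% of all probes) and 45 of 178 in DMH minus VMH (52.2%). Again none was called in limma, against 0.434% and 0.981% of all probes. Of the 60 members with several kept probes, all lay on 1 side of 0 in 34 in DMH minus Arc and in 40 in DMH minus VMH.

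The DMH differences of the members changed with the brightness of the probe, and those of all probes did so too. For member probes with a mean log2 signal under 2 the median DMH minus VMH difference was 0.31 (43 probes), and it was 0.18, 0.19 and 0.01 in the bins from 2 to 5 and -0.10 at 5 and over (20 probes). The medians of all probes in the same bins were 0.00, -0.08, -0.12, -0.20 and -0.28, so in each bin the members lay above. VMH minus Arc changed less: member medians were -0.34, -0.31, -0.33, -0.20 and -0.22, against -0.03, 0.04, 0.02, 0.03 and -0.17 for all probes. At 5 and over, 561 of 709 of all probes were below 0 in VMH minus Arc, and 19 of 20 member probes. At 4 to 5 these were 314 of 694 and 20 of 21. For DMH minus Arc the members lay at -0.03, -0.09, -0.15, -0.25 and -0.28 and all probes at -0.02, -0.02, -0.05, -0.14 and -0.43, so at 5 and over the members were less low than other probes.

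**Figure D4:**
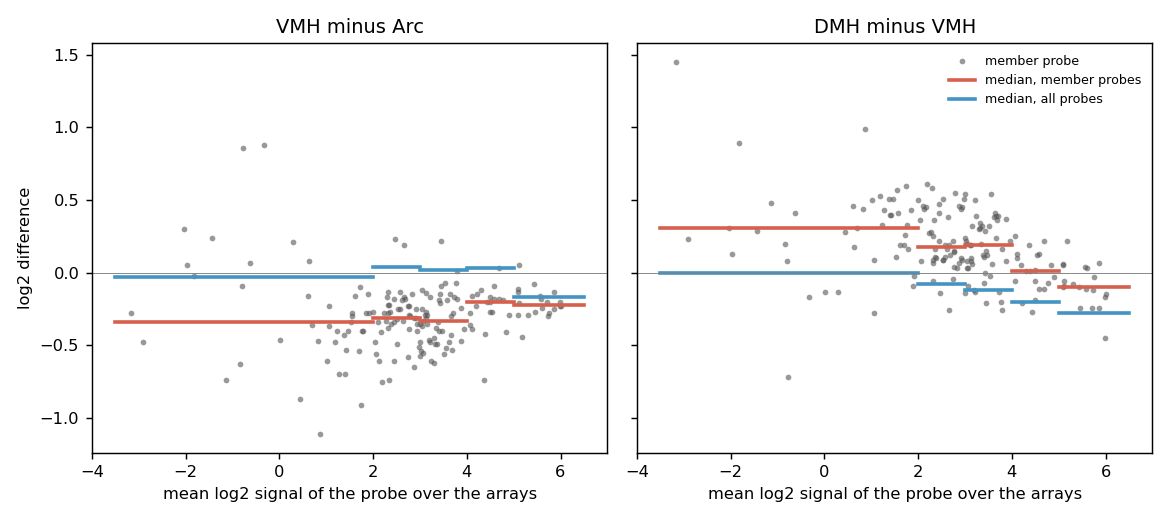
Dots are member probes, by mean log2 signal over the arrays (horizontal axis) and log2 difference (vertical axis), with the median in each brightness bin for member probes (red) and all probes (blue). In VMH minus Arc the red medians stay between -0.34 and -0.20, and in DMH minus VMH both lines fall with brightness, from 0.31 to -0.10 for member probes.

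**Figure D5:**
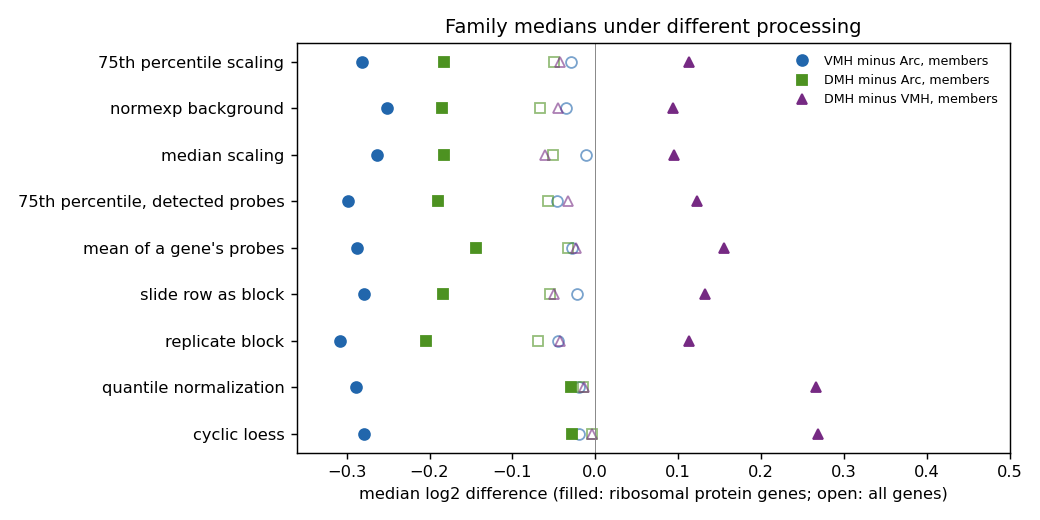
Family medians (filled) and medians of all genes (open) of the log2 difference are shown for 9 ways of processing. The VMH minus Arc median of the members stays between -0.31 and -0.25, while under quantile and loess normalization the DMH minus Arc median is -0.03 and the DMH minus VMH median 0.27.

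The VMH minus Arc family median lay between -0.32 and -0.25 over all 25 other settings, with 69 to 74 members below 0. The DMH minus Arc median lay between -0.21 and -0.03, with 43 to 69 members below 0, and the DMH minus VMH median between 0.09 and 0.27, with 2 to 29 below 0. Under quantile and loess normalization the DMH level of the family was close to that of Arc, and with a single scaling factor per array it lay between Arc and VMH. In both cases VMH was lowest.

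The members with roles of their own mostly followed the family. In the stalk, Rplp0 read 2.30 and 2.07 in Arc, 1.87, 1.87 and 1.81 in VMH and 2.47, 2.27 and 2.19 in DMH, with its VMH arrays below all the others. Rplp2 read 4.42 and 4.28 in Arc, 3.93 and 4.04 in VMH, where the spot of the third array was an outlier and was left out, and 3.67, 4.03 and 4.08 in DMH. Thus Rplp0 had its DMH arrays near Arc, while Rplp1 and Rplp2 had theirs close to or below VMH. Rpl5 and Rpl11, which bind the 5S rRNA and, when free, Mdm2, gave VMH minus Arc differences of -0.47 ± 0.25 and -0.18 ± 0.19 (SE).

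Rps27a, made as a fusion with ubiquitin, gave -0.38 ± 0.20 (SE) for VMH minus Arc. Rps14, of the small subunit platform, and Rps18, of its head, gave -0.28 ± 0.20 and -0.24 ± 0.19 (SE). Rpl3, near the peptidyl transferase centre, gave -0.21 ± 0.23 and, for DMH minus Arc, 0.08 ± 0.23, where another of its probes gave -0.58. Rpl13a, also known outside the ribosome for silencing mRNAs after interferon, read 3.39 and 3.07 in Arc, 2.42, 2.60 and 2.95 in VMH and 3.25, 2.94 and 3.39 in DMH. Its VMH arrays lay below both Arc arrays, with 1 of them just above a DMH array. Of the 4 X-linked members, Rps4x, Rpl39, Rpl36a and Rpl10, the VMH minus Arc differences were -0.37, -0.28, -0.17 and -0.15, within the range of the autosomal members.

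Among ribosomal proteins that the name rule left out, VMH minus Arc was -0.50 ± 0.28 for Rps3a1, -0.19 ± 0.22 for Fau and -0.18 ± 0.20 for Gnb2l1 (Rack1) (SE), none called in limma. Of 6 measured paralogues 4 were below 0, with a median of -0.34: Rps27l (-0.35), Rpl36al (-0.32), Rpl3l (-0.58) and Rpl7l1 (-0.42), while Rpl22l1 and Rpl10l were at 0.02 and 0.10. In DMH minus VMH 6 of 6 paralogues were at or above 0. None of the 6 was called.

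Other lists of the translation machinery differed in median from the members. Mitochondrial ribosomal proteins, which build a separate ribosome, had a VMH minus Arc median of 0.16, with 22 of 75 below 0, and DMH minus Arc of 0.18. In this list 1 gene was called, Mrps25, with 2.49 and 2.52 in Arc and 4.25, 3.80 and 4.26 in VMH (1.60 ± 0.23, SE; limma adjusted p 0.0236). A list of initiation factors was taken by gene name (Eif), so it also holds regulators such as Eif2ak3 and Eif4ebp1. Among its 51 measured genes the VMH minus Arc median was 0.04, and Eif1ad was called at 1.42 ± 0.23 (SE, limma adjusted p 0.0395). The 14 elongation and termination factors had a median of 0.06 with none called, the smallest limma adjusted p being 0.0732 for Eif5a2. The 47 genes of ribosome assembly and rRNA transcription had a median of 0.14, also with none called.

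Other mRNAs known to start with a pyrimidine tract, which share some genes with the lists above, lay on the members' side: 15 of 19 were below 0 in VMH minus Arc, with a median of -0.18, and none was called. Tpt1 gave -0.34 ± 0.21, Npm1 -0.30 ± 0.22 and Eef1a1 -0.30 ± 0.22, while Nap1l1 gave 0.93 ± 0.33 and Pabpc1 0.72 ± 0.23 (SE). Of 23 genes of the mTOR pathway and the S6 kinases, the median was 0.15 and none was called in VMH minus Arc. Mtor itself gave 0.76 ± 0.19 (limma adjusted p 0.146). In DMH minus VMH, Deptor, an mTOR inhibitor, was called lower at -2.13 ± 0.38 (limma adjusted p 0.0488).

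Markers of other cell types moved with the nuclei as well. All 9 microglia markers were below 0 in VMH minus Arc, with a median of -0.74 and none called, and their summed linear signal, in multiples of the 75th percentile, was 212 to 243 in Arc, 159 to 188 in VMH and 112 to 150 in DMH. Most of that sum came from Itgam and Csf1r, while P2ry12 and Tmem119 lay below the 75th percentile on every array. Marker by marker the DMH order was mixed. In DMH minus Arc 6 of the 9 were below 0 and 3 above, with a median of -0.50. In DMH minus VMH 4 were below 0 and 5 above, with a median of 0.46. Of 8 endothelial markers 7 were below 0 in VMH minus Arc, with summed signals of 5.76 to 6.24, 4.48 to 5.25 and 3.54 to 5.22 in Arc, VMH and DMH. Oligodendrocyte markers went the other way, with 9 of 10 above 0 and sums of 10.1 to 18.4 in Arc and 19.6 to 29.9 in VMH. Tanycyte and ependyma markers summed to 4.76 to 5.47, 3.82 to 4.63 and 2.21 to 3.71, astrocyte markers to 49.5 to 56.9, 51.8 to 63.2 and 45.3 to 56.5, and neuron markers to 242 to 249, 206 to 252 and 163 to 200. Of 8 neuron markers 7 were above 0 in VMH minus Arc, with a median of 0.24 and 2 called higher in limma; 1 was called higher in DMH minus Arc and 1 lower in DMH minus VMH. Of 8 astrocyte markers 7 were above 0 in DMH minus Arc, with a median of 0.52 and none called. The part of these cells in the members' differences was not tested, and in pooled samples fewer cells of a type and less RNA per cell cannot be told apart.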

How the data were processed

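RNA of 8 pooled samples was labelled with Cy5 and hybridised to 8 Agilent arrays on 1 slide. The deposited values used are processed red intensity per spot, which the authors made with Agilent Feature Extraction (version 11.5.1.1, in the submitters' processing notes); per the file headers, probes are placed in mm9. From these, control spots and flagged outlier spots were left out, log2 intensity was set relative to each array's 75th percentile, repeated spots were averaged, probes not well above background on all arrays of any nucleus were dropped, and the brightest kept probe stood for a gene. All 8 arrays entered a limma 3.58.1 fit (R 4.3.3) with a mean per nucleus; p-values were adjusted by Benjamini-Hochberg over 27417 genes, within each contrast and for the F test, and called under 0.05. A further fit took each probe on its own. The fit was tested on simulated data. The deposited series value table was not used.

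Members and lists were chosen with earlier results of these data known, so counts and medians of lists are descriptions and carry no p. Named were members past the threshold, the 5 highest and 5 lowest differences in each pair and the 5 smallest F-test p. Also named were a fixed set of members by role and members whose probes disagree in VMH minus Arc. From other lists, up to 3 genes past the threshold or the 2 of smallest p were named. Tpt1, Npm1, Eef1a1, Mtor, the paralogues and the marker genes were named beyond that rule after their values were seen. Alternatives changed background correction, scaling, filter, probe choice, variance model and blocks, and left out each array in turn. Precision is limited by the number of arrays.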

Additional observations from a re-analysis of the deposited data

How the results depend on the processing

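Over 25 other settings the members' median VMH minus Arc kept its sign and moved by less than the spread between arrays. Those of the DMH pairs moved: DMH minus Arc was -0.013 (large) and -0.057 (small subunit) with quantile normalization, -0.014 and -0.069 with cyclic loess, and, with the mean of a gene's probes, -0.036 and -0.059 (quantile) and -0.028 and -0.072 (loess). DMH minus VMH was 0.264 and 0.286, 0.269 and 0.271, 0.249 and 0.287, and 0.268 and 0.289 in the same order. The 2 settings that join the mean of probes to another normalization were chosen after seeing the data. With a prior variance that follows signal, 1 member, Rps6, was called in the F test and in VMH minus Arc (limma adjusted p 0.0287); in the 24 others 0 members were called in any comparison.

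Counts over all genes moved more. In the F test, VMH minus Arc, DMH minus Arc and DMH minus VMH they were 462, 268, 114 and 337. Normexp correction gave 725, 408 and 233 in the first 3, and the trended variance 744, 403 and 232. No filter gave 262, 164, 41 and 200, and the slide row as a block 230, 164, 55 and 167. For DMH minus Arc, array weights gave 41, the mean of probes 207, with loess 219 and with quantile 216. With the replicate block the counts were 170, 74, 32 and 163 and 0 members were called; same-numbered arrays correlated at 0.072 to 0.185 and others at -0.126 to 0.015. These correlations used deviations from each nucleus mean, which sum to 0 within a nucleus, so low values for other numbers were partly forced. Each array correlated best with its own number, a hint from the data that is weakened by this. Not every same-numbered pair was over 0.1, and the numbers were not taken to pair the arrays. Without 1 array at a time the counts ran from 138 to 407 (F test), 87 to 266 (VMH minus Arc), 36 to 127 (DMH minus Arc) and 108 to 330 (DMH minus VMH). Leaving out any VMH or DMH array lowered the F test, DMH minus Arc and DMH minus VMH counts by over 1.5 times, and any Arc or VMH array that of VMH minus Arc. Dim probes are limited by background, and 2 arrays in Arc limit every comparison with it.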
